A study of Mus musculus with 16 samples.

Results

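The genes described here are 34 fibroblast markers and glycoproteins of the extracellular matrix, chosen by name, with collagens and proteases left out. All 34 were among the 16118 genes measured. Polyadenylated RNA was sequenced from the atria and the ventricles of 8 adult male littermate mice, which gave 4 groups of 4 libraries, one library per mouse and chamber. All mice were homozygous for floxed alleles of Meis1 and Meis2 (Meis1flox/flox and Meis2flox/flox). The idKO mice, from which the idKO atrium and idKO ventricle groups come, also carried a transgene for a tamoxifen-activated Cre recombinase (alpha-MHC-MerCreMer tg/wt). The control mice, from which the control atrium and control ventricle groups come, did not (wt/wt at that transgene). Hearts of both genotypes were collected 2 weeks after tamoxifen and the outflow tract was removed; an age beyond adult is not given in the labels. The alpha-MHC promoter is active in cardiomyocytes, so the recombinase was not directed at the fibroblasts that make most of these proteins, and since control mice had no Cre transgene, its effect and that of the deletion cannot be told apart. The question of the study was what the loss of Meis1 and Meis2, which encode homeodomain transcription factors, does to gene expression in the heart.

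Cardiac fibroblasts lie between the muscle cells and secrete most of the matrix that carries force through the heart wall. Fibrillin microfibrils and elastin give the matrix recoil, small leucine-rich proteoglycans coat collagen fibrils and set their width, and matricellular proteins such as periostin and the thrombospondins act on cells and on growth factors rather than as scaffold. Several of these genes, among them Postn, Comp, Cilp and Fn1, are known to be raised when cardiac fibroblasts respond to injury or load. Some members are not particular to fibroblasts: Sparc, Lamc1 and Fn1 are made by endothelial cells too, and Gsn is expressed in many cell types.

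The sequences that precede 4 of the genes are given because the results turn on these genes and because MEIS proteins bind DNA at a core of the letters TGACAG. Fmod stood among the largest atrial excesses, Aspn among the genes higher in ventricles, and Postn and Cilp among the largest genotype differences. Each is the 250 bases before the gene's start in RefSeq (GRCm38.p6), on the plus strand: Fmod at chr1:134037004-134037253, Aspn at chr13:49544193-49544442, Postn at chr3:54360857-54361106 and Cilp at chr9:65264930-65265179. Capitals mark TGACAG or TATAA on either strand (TATAA reads TTATA on the other strand); the 2 motifs do not overlap.
Fmod: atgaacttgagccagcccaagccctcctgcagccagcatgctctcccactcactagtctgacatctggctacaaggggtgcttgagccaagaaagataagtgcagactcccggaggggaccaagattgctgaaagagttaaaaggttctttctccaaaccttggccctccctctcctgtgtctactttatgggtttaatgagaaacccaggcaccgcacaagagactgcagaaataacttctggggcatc
Aspn: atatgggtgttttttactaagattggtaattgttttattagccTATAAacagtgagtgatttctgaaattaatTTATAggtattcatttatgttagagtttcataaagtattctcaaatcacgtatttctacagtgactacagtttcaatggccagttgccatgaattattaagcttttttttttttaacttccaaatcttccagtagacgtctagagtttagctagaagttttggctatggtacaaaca
Postn: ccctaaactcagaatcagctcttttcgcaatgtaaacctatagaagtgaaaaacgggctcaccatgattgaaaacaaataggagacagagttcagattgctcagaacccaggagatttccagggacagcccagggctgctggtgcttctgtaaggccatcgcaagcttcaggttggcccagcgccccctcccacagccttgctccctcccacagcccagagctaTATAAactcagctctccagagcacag
Cilp: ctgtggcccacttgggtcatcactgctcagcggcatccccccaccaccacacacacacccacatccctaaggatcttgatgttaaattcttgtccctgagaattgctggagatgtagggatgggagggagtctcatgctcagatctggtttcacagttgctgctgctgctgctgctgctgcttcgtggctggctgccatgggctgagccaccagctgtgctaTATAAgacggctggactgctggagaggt
None of the 4 windows held TGACAG. Of all 32851 promoter windows of that length in RefSeq, 15.86% held it, and among the 23 members with a window there, 1 did (Gsn). TATAA was found in 22.78% of all windows and in those of 8 members, at 26 bases before the start in Postn and at 28 in Cilp. A missing match says only that these letters are not in this window.

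Each library held 13.1 to 21.8 M (mega) recovered reads. Values are normalised read counts, that is, reads per M (mega) of an effective library size set by the authors' scaling, and levels are compared between genes only per kb of exon. That effective size was on average 0.958 of the recovered reads in idKO atria and 0.947 in control atria, and 0.687 in idKO ventricles and 0.639 in control ventricles. Mitochondrial genes took 17.2% of the reads in both atrial groups, 29.0% in idKO ventricles and 30.9% in control ventricles. Of the targeted genes, Meis2 averaged 8.82 ± 0.848 in idKO ventricles and 26.8 ± 4.24 in control ventricles (SD, n = 4 each), a log2 fold change of -1.49 ± 0.12 (SE; limma adjusted p = 2.0e-05). In atria it averaged 17.7 ± 1.64 in idKO and 20.0 ± 1.48 in control libraries and did not pass (-0.16 ± 0.10, limma adjusted p = 0.966). Meis1 passed in neither chamber (in ventricles -0.24 ± 0.09, limma adjusted p = 0.236). Which exons lie between the loxP sites is not stated in the labels, so a count over the whole gene need not show the deletion. Each library of a group came from another mouse, so errors cover the spread between mice. In the chamber comparisons and the interaction, the atrium and ventricle of a mouse were taken as independent unless the mouse is named as a block. Those errors are thus not the spread of differences within mice.

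Per kb of exon, Gsn had the highest level of the 34 genes in all 4 groups, at 1024 in idKO atria, 893 in control atria, 487 in idKO ventricles and 435 in control ventricles. Gsn encodes gelsolin, which severs actin filaments and has a secreted form. Dcn and Sparc held the next 2 places in all groups, at 88.6 to 154 per kb. The fourth place was held by Dpt in both atrial groups and by Ogn in both ventricular groups. Tnc, which encodes tenascin-C and is low in the healthy adult heart, was last in every group, at 0.141 to 0.207 per kb.

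Atria and ventricles were compared first within control mice. The matrix genes were mostly higher in atria: 24 of the 34 were higher and 5 lower (limma, adjusted p under 0.05 over 14871 genes), with a median log2 fold change of 0.46. Of all genes tested, 56.9% were called in this comparison, 28.2% higher and 28.7% lower, with a median of 0.02. The largest atrial excesses were those of Comp, Fmod, Mfap4 and Fn1, and the genes lower in atria were Smoc2, Thbs4, Aspn, Thbs2 and Ogn. The 4 control atria lay above all 4 control ventricles for 19 members, against 24.8% of all genes, and below them for 5, against 25.9%. These are bulk libraries, in which fewer cells of a type and less RNA per cell cannot be told apart.

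The split between higher and lower depends on the scaling. With values scaled by the library total, the median of all genes moved by 0.49 on the log2 scale and 9879 genes were called higher and 1388 lower in control atria, against 4201 and 4267 with the deposited scaling. With the total taken without mitochondrial genes it moved by 0.27, with 7234 genes higher and 2295 lower. Of the members, 27 were then called higher and 1 lower (Smoc2) by library total, and 26 higher and 3 lower without mitochondrial genes, where Aspn and Thbs2 lost their calls. No member changed sign in control mice under either scaling.

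**Figure D1:**
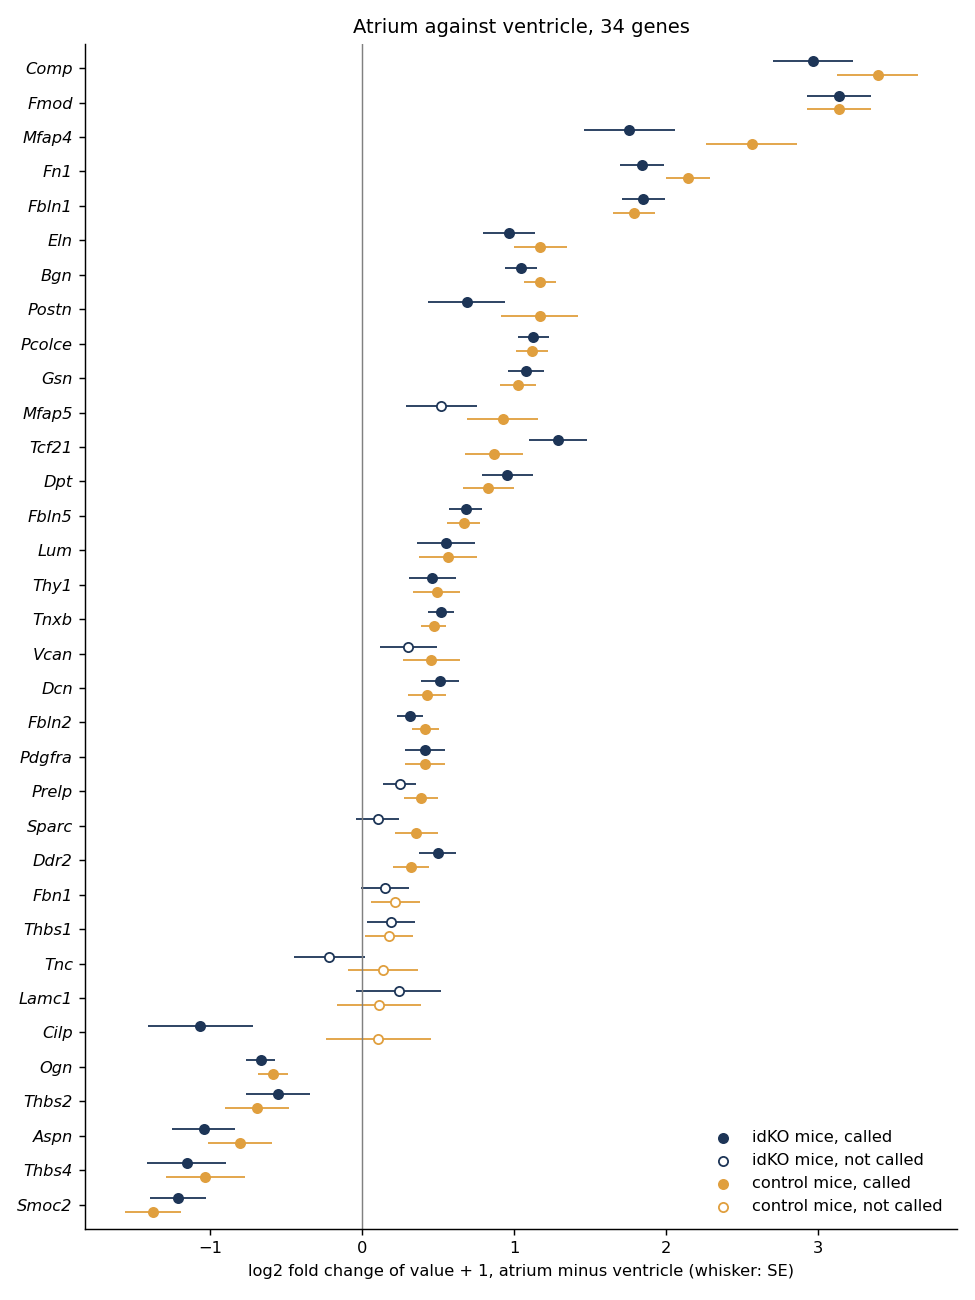
Log2 fold change of each of the 34 genes, atrium minus ventricle, on the log2(value + 1) scale, in idKO mice (dark blue, upper point of each pair) and control mice (orange, lower point), with SE from limma as whiskers and filled points for adjusted p under 0.05. Comp, Fmod, Mfap4, Fn1 and Fbln1 lie farthest right in control mice, 5 genes from Ogn to Smoc2 lie left of 0 in both genotypes, and Cilp is called in idKO mice alone, a difference that did not pass its own test; the sign of Tnc in idKO mice flips with scaling by library total.

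The 4 fibroblast markers were all detected in every library and were all higher in control atria than in control ventricles. Pdgfra (ENSMUSG00000029231, chr5:75152292-75198215, plus strand; GRCm38) encodes a receptor for platelet-derived growth factor that marks resident fibroblasts. Its normalised read counts were 59.2, 84.6, 72.5 and 63.4 in idKO atria, against 71.4, 55.5, 61.9 and 51.1 in control atria. In ventricles they were 51.1, 69.1, 44.1 and 46.1 in idKO ventricles, against 44.7, 40.5, 47.3 and 45.7 in control ventricles. The control groups of the 2 chambers did not overlap, and idKO ventricle 2 reached the range of the atria. Tcf21 (ENSMUSG00000045680, chr10:22817281-22820174, minus strand) encodes a transcription factor needed for the fibroblast lineage. It had 18.6, 26.7, 30.2 and 22.1 in idKO atria, against 25.6, 16.99, 21.2 and 16.5 in control atria. Ventricles had 8.24, 14.9, 7.46 and 7.83 in idKO ventricles, against 12.4, 10.2, 9.51 and 9.72 in control ventricles, so that every ventricle lay below every atrium. Ddr2 (ENSMUSG00000026674, chr1:169972307-170110762, minus strand), a receptor for fibrillar collagen, had 39.6, 55.7, 44.1 and 46.1 in idKO atria, against 52.1, 40.3, 39.2 and 36.2 in control atria. Its values were 27.1, 38.3, 31.0 and 33.9 in idKO ventricles, against 35.4, 30.5, 33.0 and 33.4 in control ventricles. Thy1 (ENSMUSG00000032011, chr9:44043384-44048579, plus strand), a surface glycoprotein of fibroblasts that T cells and neurons also carry, had 16.03, 12.3, 11.8 and 9.80 in idKO atria, against 14.5, 12.4, 13.2 and 11.9 in control atria. It had 7.10, 10.4, 9.12 and 8.39 in idKO ventricles, against 7.96, 12.1, 8.80 and 7.45 in control ventricles, and the control groups overlapped between chambers.

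In control mice the atrium minus ventricle differences of these markers were 0.87 ± 0.19 for Tcf21 (SE; limma adjusted p = 7.2e-04) and 0.49 ± 0.15 for Thy1 (limma adjusted p = 0.0111). For Pdgfra the difference was 0.41 ± 0.13 (limma adjusted p = 0.0121) and for Ddr2 0.32 ± 0.12 (limma adjusted p = 0.0273). All 4 were also called in idKO mice, with Tcf21 at 1.29 ± 0.19. All 4 were higher in the atrium than in the ventricle of each of the 8 mice. The calls of Pdgfra and Thy1 were lost without control mouse 1 (limma adjusted p = 0.0774 and 0.0838), and that of Ddr2 without control mouse 1, 2 or 3 (0.103, 0.0916 and 0.0540). In idKO mice that of Thy1 was lost without idKO mouse 1 (0.199) and that of Pdgfra without idKO mouse 3 (0.0999).

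**Figure D2:**
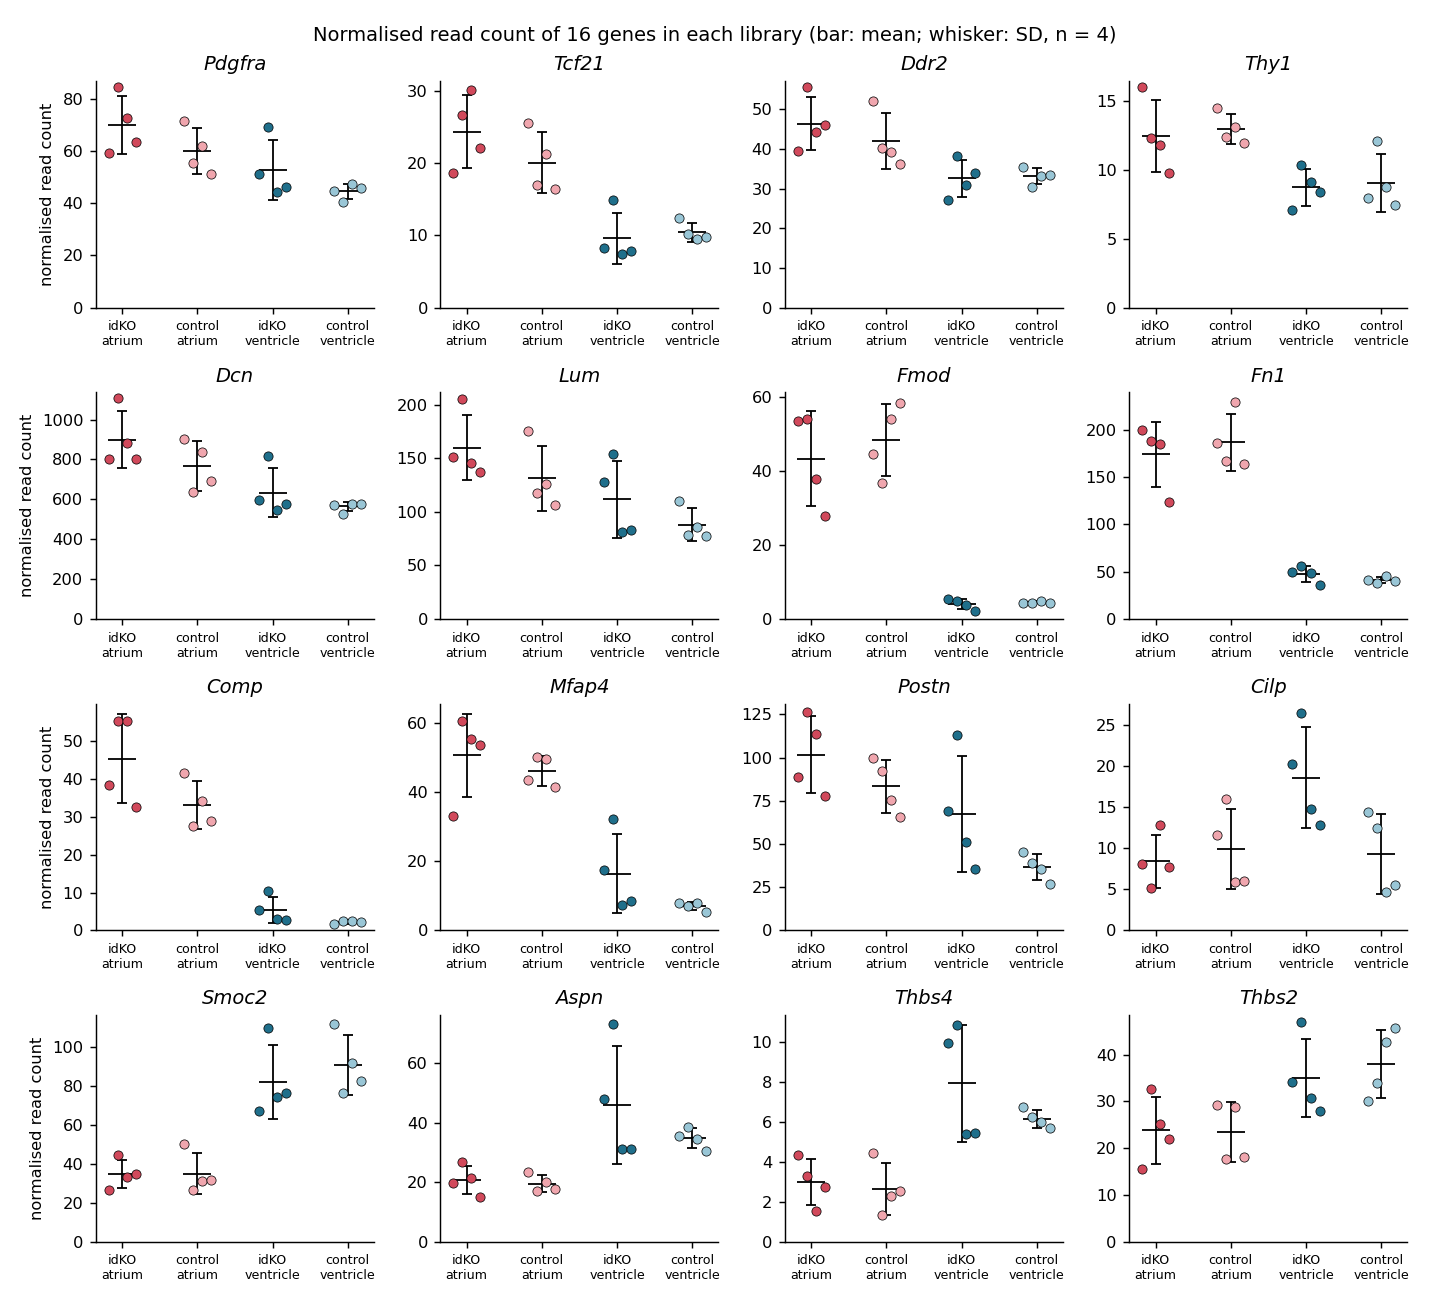
Normalised read count of 16 of the 34 genes in each library (points), by group, with the group mean (bar) and SD (whisker, n = 4). Fmod, Comp, Fn1 and Mfap4 separate atria from ventricles widely, Smoc2 and Aspn lie higher in ventricles, and idKO ventricle 2 is the highest ventricle for Comp, Mfap4, Postn, Cilp and Aspn.

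Of the 7 small leucine-rich proteoglycans, 5 were higher and 2 (Aspn and Ogn) lower in control atria, against 28.2% and 28.7% of all genes. The count of lower proteoglycans is thus near the share over all genes. Fmod (ENSMUSG00000041559, chr1:134037254-134048277, plus strand), whose product fibromodulin binds collagen and steers fibril assembly, had 53.5, 54.1, 37.7 and 27.8 in idKO atria, against 44.4, 36.6, 53.9 and 58.3 in control atria. In ventricles it had 5.28, 4.78, 3.67 and 2.27 in idKO ventricles, against 4.37, 4.38, 4.98 and 4.35 in control ventricles. Every atrium lay far above every ventricle, and the fold between control means was 10.7 (3.14 ± 0.21 on the log2 scale, limma adjusted p = 3.0e-10). Aspn (ENSMUSG00000021388, chr13:49544443-49567565, plus strand), which encodes asporin, a relative of decorin, went the other way with 19.9, 26.7, 21.3 and 15.1 in idKO atria, against 23.5, 17.1, 20.0 and 17.7 in control atria. Its ventricular counts were 48.1, 73.2, 31.2 and 31.2 in idKO ventricles, against 35.6, 38.5, 34.6 and 30.4 in control ventricles. All ventricles lay above all atria, with a log2 difference of -0.81 ± 0.21 in control mice (limma adjusted p = 0.00302). The related Ogn, which encodes osteoglycin, shared that direction (-0.59 ± 0.10, limma adjusted p = 4.7e-05).

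Decorin and lumican, the proteoglycans that coat collagen fibrils most widely, differed less between chambers. Dcn (ENSMUSG00000019929, chr10:97479609-97518143, plus strand) had 802, 1106, 884 and 803 in idKO atria, against 900.1, 635, 839.6 and 693 in control atria. It had 595, 815, 545 and 578 in idKO ventricles, against 573, 528, 578 and 578 in control ventricles; the control groups did not overlap, while the idKO ventricle 2 value of 815 lay within the range of the atria. The control difference was 0.43 ± 0.13 (limma adjusted p = 0.00698). Lum (ENSMUSG00000036446, chr10:97565128-97572703, plus strand) had 152, 205, 146 and 137 in idKO atria, against 175, 118, 126 and 107 in control atria. Its counts were 128, 154, 81.3 and 82.8 in idKO ventricles, against 110.2, 78.6, 85.7 and 77.1 in control ventricles, with overlap between the chambers and a control difference of 0.56 ± 0.19 (limma adjusted p = 0.0173), which was lost without control mouse 2 or 3 (0.0524 and 0.0537). In idKO mice the Lum call was lost without idKO mouse 3 or 4 (0.0908 and 0.0632). Bgn, which encodes biglycan, was called higher in control atria at 1.17 ± 0.10, and Prelp at 0.39 ± 0.11.

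Of the 7 elastic fibre and microfibril genes, 6 were higher in control atria, against 28.2% of all genes. Fbn1, which encodes the main fibrillin of the adult, did not pass (0.22 ± 0.16, limma adjusted p = 0.252). With the mouse as a block Fbn1 was called too (limma adjusted p = 0.0189). Mfap4 (ENSMUSG00000042436, chr11:61485431-61488900, plus strand), a microfibril-associated glycoprotein that binds elastin, had 33.2, 60.5, 55.6 and 53.6 in idKO atria, against 43.5, 50.3, 49.7 and 41.6 in control atria. It had 17.4, 32.1, 7.46 and 8.62 in idKO ventricles, against 7.88, 6.93, 8.00 and 5.33 in control ventricles. The lowest atrium stood just above the highest ventricle, and the control difference was 2.57 ± 0.30 (limma adjusted p = 6.3e-07); 4.63% of its exon bases overlap Mapk7 on the other strand, which reached a count of 12.8. Fbln1 differed by 1.79 ± 0.14, Eln by 1.17 ± 0.17, Mfap5 by 0.93 ± 0.23, Fbln5 by 0.67 ± 0.11 and Fbln2 by 0.42 ± 0.09 in control mice.

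Of the 12 matricellular and adhesive glycoproteins, 5 were higher and 3 lower in control atria, and 4 did not pass. That is 66.7% called, against 56.9% of all genes, of which 28.2% were higher and 28.7% lower. The count of lower genes is thus near the share over all genes. Comp (ENSMUSG00000031849, chr8:70373558-70382066, plus strand), a pentameric thrombospondin first known from cartilage, had 38.5, 55.4, 55.4 and 32.5 in idKO atria, against 41.6, 27.6, 34.3 and 28.8 in control atria. In ventricles it had 5.28, 10.5, 3.07 and 2.82 in idKO ventricles, against 1.67, 2.58, 2.46 and 2.16 in control ventricles. Control atria averaged 14.9 times the control ventricles (3.39 ± 0.27 on the log2(value + 1) scale, limma adjusted p = 2.6e-09), with no overlap in either genotype. Fn1 (ENSMUSG00000026193, chr1:71585520-71653200, minus strand), the adhesive protein fibronectin, had 199, 188, 185 and 124 in idKO atria, against 186, 167, 229.8 and 163 in control atria. It had 50.0, 56.4, 48.2 and 35.7 in idKO ventricles, against 40.9, 37.8, 45.5 and 39.8 in control ventricles. All atria lay above all ventricles, with a control difference of 2.15 ± 0.15 (limma adjusted p = 3.4e-10).

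Postn (ENSMUSG00000027750, chr3:54361109-54391037, plus strand) encodes periostin, which crosslinks collagen through other matrix proteins and marks activated fibroblasts. Its counts were 89.0, 126, 114 and 77.6 in idKO atria, against 99.9, 92.3, 75.5 and 65.9 in control atria. In ventricles they were 69.0, 113, 51.4 and 35.6 in idKO ventricles, against 45.4, 38.8, 35.8 and 26.7 in control ventricles. Control atria and ventricles did not overlap (1.17 ± 0.25, limma adjusted p = 6.4e-04), whereas idKO ventricle 2 lay within the range of the idKO atria, and the idKO difference of 0.69 ± 0.25 (limma adjusted p = 0.0281) was lost without idKO mouse 3 or 4 (0.154 and 0.0634), with DESeq2 (0.0875) and with edgeR (0.0531). Cilp (ENSMUSG00000042254, chr9:65265180-65280605, plus strand), a glycoprotein of cartilage and of the stressed heart, had 8.08, 5.10, 12.8 and 7.69 in idKO atria, against 11.6, 15.98, 5.89 and 5.99 in control atria. It had 20.2, 26.5, 14.8 and 12.8 in idKO ventricles, against 14.4, 12.4, 4.68 and 5.55 in control ventricles. Control chambers overlapped (0.11 ± 0.35, limma adjusted p = 0.813). In idKO mice it was called lower in atria (-1.07 ± 0.35, limma adjusted p = 0.0142), a call that was lost without idKO mouse 1 or 2 (0.0587 and 0.143). All idKO atria lay below all idKO ventricles, but the highest atrium (idKO atrium 3) was only just below the lowest ventricle (12.84 in idKO ventricle 4).

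Smoc2, Thbs4 and Thbs2 were the matricellular genes lower in atria. Smoc2 (ENSMUSG00000023886, chr17:14279506-14404790, plus strand), a calcium-binding relative of SPARC, had 26.5, 44.3, 33.1 and 34.7 in idKO atria, against 50.0, 26.4, 31.4 and 31.7 in control atria. Ventricles had 67.1, 109.6, 73.9 and 76.0 in idKO ventricles, against 112, 76.5, 91.5 and 82.4 in control ventricles. Every ventricle lay above every atrium, and the control difference of -1.38 ± 0.18 (limma adjusted p = 3.4e-06) was also called under both other scalings. Thbs4 (ENSMUSG00000021702, chr13:92751590-92794818, minus strand), a thrombospondin of muscle and tendon, had 4.33, 3.30, 1.56 and 2.73 in idKO atria, against 4.45, 1.34, 2.29 and 2.55 in control atria. Its ventricular counts were 9.98, 10.9, 5.41 and 5.45 in idKO ventricles, against 6.74, 6.26, 5.99 and 5.69 in control ventricles, again with no overlap between chambers (-1.03 ± 0.26 in control mice, limma adjusted p = 0.00239; 0.0709 with scaling by library total). Thbs2 (ENSMUSG00000023885, chr17:14665500-14694235, minus strand), a thrombospondin that limits the growth of vessels, had 15.5, 32.6, 25.1 and 22.1 in idKO atria, against 29.3, 17.8, 28.9 and 18.1 in control atria. It had 34.1, 46.9, 30.8 and 28.0 in idKO ventricles, against 30.2, 33.8, 42.6 and 45.7 in control ventricles, and its control difference of -0.69 ± 0.21 (limma adjusted p = 0.00919) was lost without control mouse 4 (0.0955). In idKO mice the Thbs2 call (-0.55 ± 0.21, limma adjusted p = 0.0337) was lost without idKO mouse 1 (0.185), with DESeq2 (0.0606) and with edgeR (0.0527).

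The 4 remaining genes were all higher in control atria, against 28.2% of all genes. Pcolce, which enhances the cleavage of procollagen, was higher by 1.12 ± 0.10 and Gsn by 1.02 ± 0.12. Dpt, which encodes dermatopontin, was higher by 0.83 ± 0.17, and the large proteoglycan gene Vcan by 0.46 ± 0.19. The Vcan call (limma adjusted p = 0.0466) and that of Sparc (0.35 ± 0.14, limma adjusted p = 0.0395) were the weakest. Sparc was no longer called without any 1 of the control mice or without idKO mouse 1 (0.0530 to 0.0943). Vcan was no longer called without control mouse 2 or 3 or idKO mouse 1, 2 or 4 (0.0544 to 0.233). Tnxb, which encodes tenascin-X, completed the genes that were higher (0.47 ± 0.08). Thbs1 (0.17 ± 0.16), Tnc (0.14 ± 0.23) and Lamc1 (0.11 ± 0.28), like Fbn1 and Cilp, did not pass.

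In idKO mice the same comparison called 26 of the 34 members, 20 higher and 6 lower in atria, against 53.8% of all genes tested, 26.8% higher and 27.1% lower. Groups did not overlap for 14 members above and 5 below, against 23.0% and 24.2% of all genes. Counted by mouse over both genotypes, 22 members were higher in the atrium of each of the 8 mice and 5 (Ogn, Aspn, Thbs2, Thbs4 and Smoc2) were lower in each. The other 7 (Sparc, Thbs1, Mfap5, Vcan, Tnc, Cilp and Lamc1) went both ways. These counts use the deposited scaling. The share of all genes with the same direction in all 8 mice was not counted, so they cannot be set against it. By library total 27 members were called higher and 3 lower in idKO atria (9254 and 1545 of all genes, against 3983 and 4024 with the deposited scaling), Ogn, Thbs2 and Cilp losing their calls and Tnc changing sign; without mitochondrial genes 25 were higher and 5 lower (6684 and 2360 of all genes). With the mouse as a block 29 members were called in idKO mice, Prelp, Mfap5 and Lamc1 being added, and 30 in control mice.

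Markers of other cell types were also compared between the control chambers, where 28.2% of all genes were called higher and 28.7% lower in atria. All 10 mesothelial and epicardial markers were called higher in control atria than in control ventricles, with summed counts of 354 to 468 per atrium and 30.5 to 46.2 per ventricle. Endocardial and valve markers were called higher for 6 of 7, with sums of 510.4 to 629 in control atria and 124 to 145 in control ventricles. Schwann cell markers were higher for 7 of 7 tested, with sums of 70.1 to 88.4 in control atria and 24.7 to 28.5 in control ventricles. Adipocyte markers were higher for 7 of 8, although their sums overlapped, at 362 to 945 in control atria and 775 to 842 in control ventricles. Of the 10 cardiomyocyte markers 8 were lower, with sums of 56076 to 65702 in control atria and 90181 to 95343 in control ventricles. Lymphocyte markers were higher for 6 of 7 tested, with sums of 35.5 to 90.7 in control atria and 12.8 to 14.1 in control ventricles, and macrophage markers for 4 of 10, with sums of 341 to 416 in control atria and 268 to 309 in control ventricles. Other lists went both ways: of 10 endothelial markers 4 were higher and 5 lower in control atria, and of 10 smooth muscle and pericyte markers 3 were higher and 3 lower. The smooth muscle and pericyte counts are near the shares over all genes. The part of these cell types in the chamber differences of the matrix genes was not tested.

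The comparison of idKO with control ventricles called no member. Of the 33 members tested (Tnc did not reach the minimum level), 0 were called by limma over 13144 genes, against 2.03% of all genes. An unadjusted p under 0.05 was found for 7, against 15.0%. With single libraries left out it was found for 5 to 12 members, against 11.9% to 17.0% of all genes. The count was 12 without idKO ventricle 3 (against 13.9%) or 4 (17.0%) and 11 without control ventricle 1 (14.6%). With scaling by library total it was 12, against 18.3% of all genes. Calls by edgeR were 0, against 1.98% of all genes, and by DESeq2 1 (Comp), against 4.09%. The log2 fold change was positive for 25 members, against 48.0% of all genes, and negative for 8, with a median of 0.16 against -0.01 for all genes tested; Ddr2, Thy1 and Pcolce turned positive with scaling by library total or without mitochondrial genes. The largest differences were those of Cilp, Mfap4, Comp and Postn, all higher on average in idKO ventricles.

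Cilp averaged 18.6 ± 6.11 in idKO ventricles and 9.26 ± 4.87 in control ventricles (SD, n = 4 each), a log2 fold change of 1.01 ± 0.30 (SE; limma adjusted p = 0.119). Its control values fell into a higher pair (mice 1 and 2) and a lower pair (mice 3 and 4), and the groups overlapped because idKO ventricle 4 lay below control ventricle 1. Comp averaged 5.41 ± 3.54 in idKO and 2.22 ± 0.406 in control ventricles, with a log2 fold change of 0.85 ± 0.30 (limma adjusted p = 0.187). Of the 33 members tested, Comp was the 1 whose groups did not overlap, all idKO ventricles lying above all control ventricles. That count is near the share over all genes, 3.17%. The gap was small, from 2.585 in control ventricle 2 to 2.822 in idKO ventricle 4. DESeq2 on the recovered reads gave Comp an adjusted p of 0.0256 and edgeR 0.134. Over the 16 alternatives that tested it the adjusted p ran from 0.0256 to 0.380. Postn averaged 67.3 ± 33.6 in idKO and 36.7 ± 7.74 in control ventricles (0.76 ± 0.27, limma adjusted p = 0.191), with 3 of 4 idKO values above all controls. It was called without idKO ventricle 4 (limma adjusted p = 0.0306; range over 17 alternatives 0.0306 to 0.392). Mfap4 averaged 16.4 ± 11.4 in idKO and 7.04 ± 1.23 in control ventricles (0.91 ± 0.33, limma adjusted p = 0.217), idKO ventricles 3 and 4 lying within or near the control range.

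By role, the 4 fibroblast markers lay at 0.22 ± 0.12 for Pdgfra, -0.03 ± 0.10 for Ddr2, -0.04 ± 0.16 for Thy1 and -0.15 ± 0.19 for Tcf21 in ventricles, none called. The 7 proteoglycans had a median of 0.19, 6 positive, between -0.18 ± 0.20 for Fmod and 0.31 ± 0.21 for Aspn. The 7 elastic fibre and microfibril genes were all positive with a median of 0.19, between 0.05 ± 0.11 for Fbn1 and the value of Mfap4. Of the 11 matricellular and adhesive genes tested 8 were positive, with a median of 0.19. Pcolce (-0.04 ± 0.09), Vcan (0.14 ± 0.18), Gsn (0.15 ± 0.10) and Dpt (0.16 ± 0.14) made up the rest. Beside Cilp, Comp, Postn and Mfap4, an unadjusted p under 0.05 was found for Fbln2 (0.19 ± 0.07), Prelp (0.24 ± 0.10) and Ogn (0.16 ± 0.07).

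**Figure D3:**
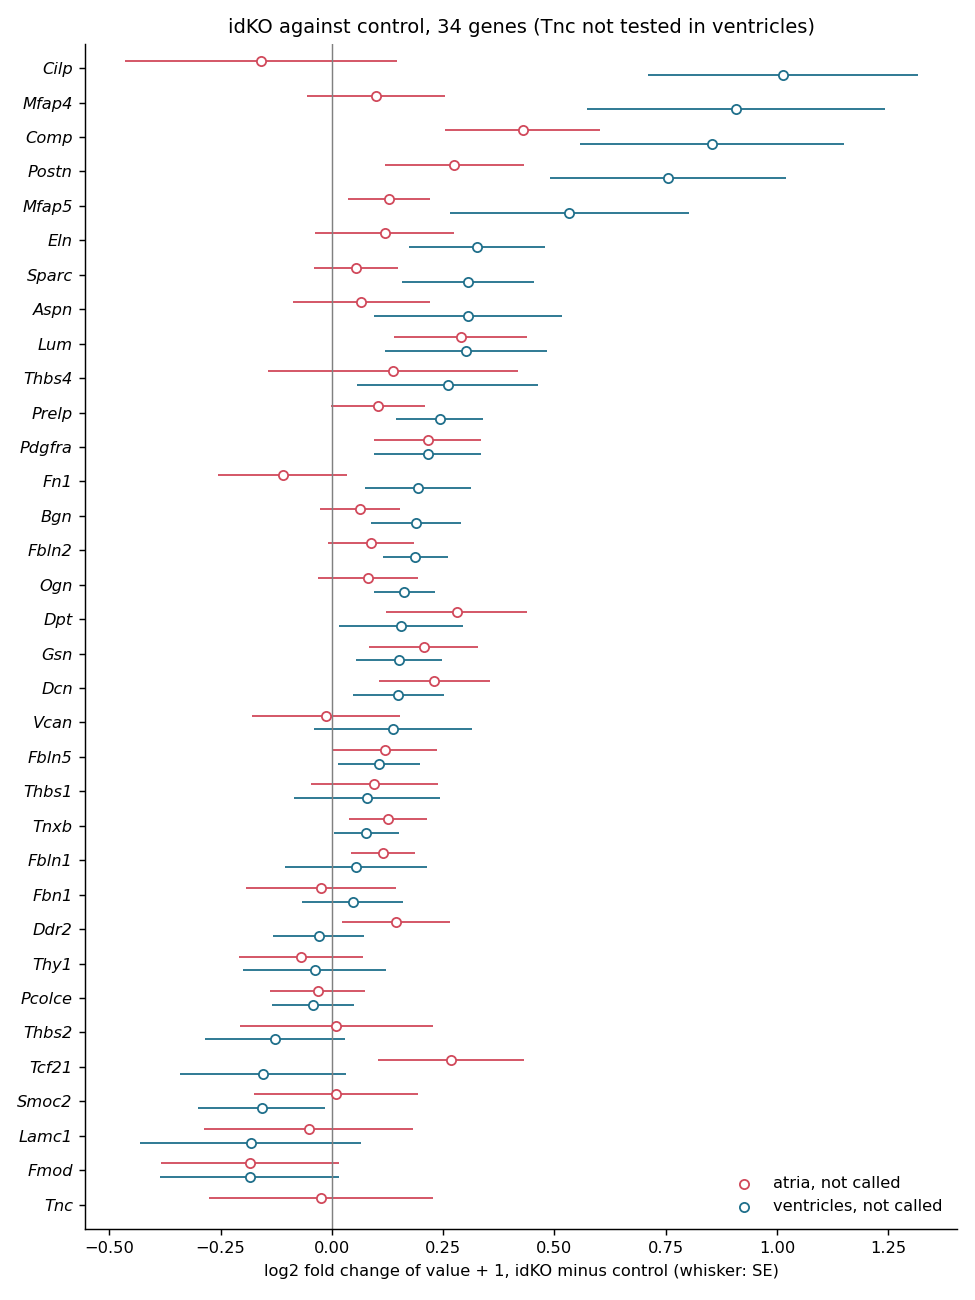
Log2 fold change of each of the 34 genes, idKO minus control, on the log2(value + 1) scale, in atria (red, upper point) and ventricles (blue, lower point), with SE from limma as whiskers. All points are open because none reached an adjusted p under 0.05; Cilp, Mfap4, Comp and Postn have the largest differences in ventricles. Ddr2, Thy1 and Pcolce in ventricles and Vcan in atria turn positive with scaling by library total or without mitochondrial genes.

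Among the ventricles, idKO ventricle 2 stood apart. It was the highest of the 4 idKO ventricles for 29 of the 34 members and the highest of all 8 ventricles for 25. It lay above all 4 control ventricles for 26, against 24.1% of all genes. Shares over all genes were not counted for the highest library. Other groups had such libraries too: control atrium 1 was the highest of its group for 24 members, idKO atrium 2 for 20 and control ventricle 1 for 17. The median difference of idKO ventricle 2 from the control mean was 0.45 on the log2 scale. The median was 0.17 in idKO ventricle 1. That library lay above all controls for 18 members, against 22.2% of all genes, and below them for 4, against 24.4%. The median was 0.03 in idKO ventricle 3, with 8 members above all controls, against 21.4% of all genes, and 7 below, against 23.15%. It was 0.00 in idKO ventricle 4, with 6 above, against 19.8%, and 9 below, against 20.7%. In idKO ventricles 3 and 4 the counts above and below are near the shares over all genes. Without idKO ventricle 2, the median member fold change between genotypes was 0.08, with 22 members positive, and the differences were 0.83 for Cilp, 0.52 for Comp, 0.52 for Mfap4 and 0.47 for Postn. The summed counts of the 22 other cardiac fibroblast markers were likewise highest in idKO ventricle 2 and next in idKO ventricle 1, at 1220, 1481, 963 and 1001 in idKO ventricles 1 to 4, against 964 to 1015 in control ventricles. Mesothelial and epicardial markers were not highest in idKO ventricle 2. Their sums were 36.1, 21.4, 13.1 and 18.2 in idKO ventricles 1 to 4, against 30.5 to 46.2 in control ventricles. Of the 6 tested, 5 were negative and 1 was called lower, where 2.03% of all genes were called. Atrial myocyte markers had sums of 496 to 1664 in idKO ventricles and 192 to 236 in control ventricles. Of the 4 tested, 2 were positive and 2 negative, and 1 was called higher. Of 5 ventricular myocyte markers, 3 were negative and 2 were called lower. Macrophage markers had a positive fold change for 9 of 10, 0 called by limma, with sums of 304 to 349 in idKO ventricles and 268 to 309 in control ventricles. The part of the make-up of this library in the ventricular differences was not tested.

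**Figure D4:**
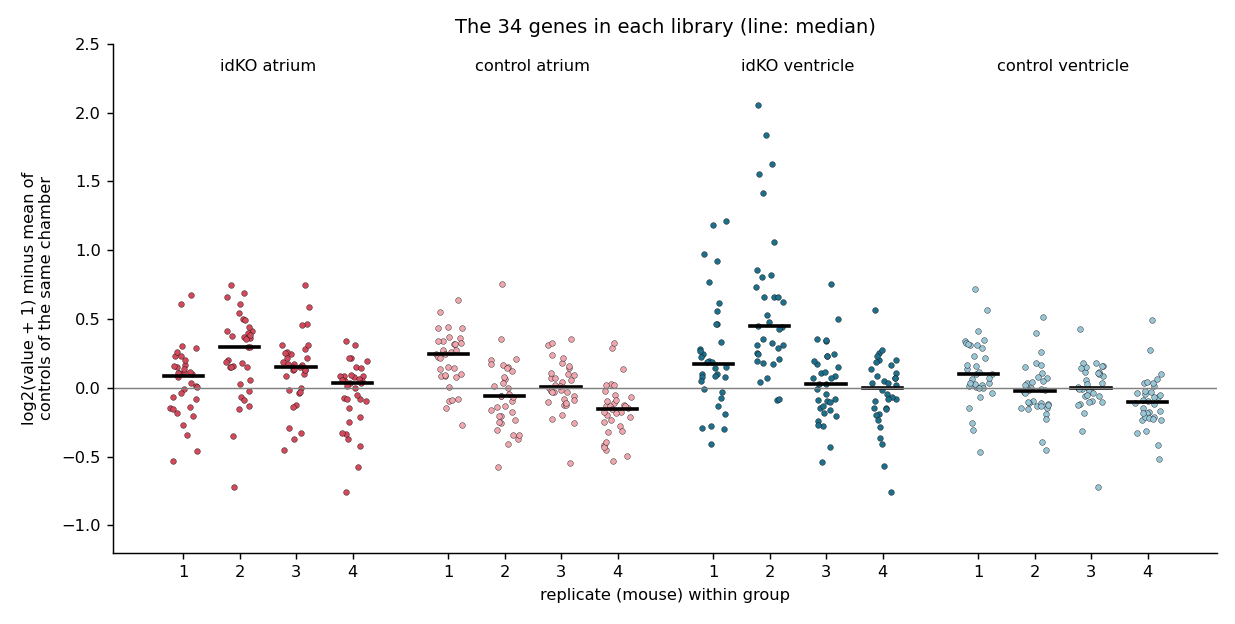
Difference of each of the 34 genes (points) from the mean of the 4 control libraries of the same chamber, on the log2(value + 1) scale, for each library, with the median over genes as a bar. The median of idKO ventricle 2 is 0.45, that of idKO atrium 2 is 0.30 and that of control atrium 1 is 0.25, and idKO ventricles 3 and 4 lie at 0.03 and 0.00.

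In atria no member was called between idKO and control mice. All 34 were tested by limma over 14523 genes, where 0.0207% of all genes were called. DESeq2 and edgeR also called 0, against 0.0826% and 0.0207% of all genes. With limma 1 member had an unadjusted p under 0.05, against 4.61% of all genes. That count rested on single libraries: it was 10 without control atrium 1 (against 6.24% of all genes), 6 without idKO atrium 4 (5.96%), 5 without idKO atrium 1 (5.34%), 1 without control atrium 3 and 0 without any 1 of the other 4. The groups overlapped for all 34 members, while those of 2.82% of all genes did not. The fold change was positive for 25 members, against 49.9% of all genes, with a median of 0.10 against 0.00; Vcan changed sign with scaling by library total or without mitochondrial genes. Markers of other cells were also compared between the genotypes. All 10 endothelial markers had a positive fold change, with a median of 0.15, 5 at an unadjusted p under 0.05 and 0 called by limma, and their sums did not overlap, at 1497 to 1659 in idKO atria and 1369 to 1450 in control atria. All 7 lymphocyte markers tested had a negative one, with a median of -1.13, 4 at an unadjusted p under 0.05 and 0 called by limma, and sums of 15.5 to 89.7 in idKO atria and 35.5 to 90.7 in control atria. Mesothelial and epicardial markers were negative for 9 of 10, 0 called by limma, with sums of 226 to 461 in idKO atria and 354 to 468 in control atria. Their part in the atrial differences was not tested.

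Comp had the smallest p in atria, averaging 45.5 ± 11.7 in idKO and 33.1 ± 6.35 in control atria (0.43 ± 0.17, limma adjusted p = 0.966). Lum averaged 159.9 ± 30.5 in idKO and 131 ± 30.4 in control atria (0.29 ± 0.15). Dcn averaged 899 ± 144 in idKO and 767 ± 124 in control atria (0.23 ± 0.12), and Pdgfra 69.9 ± 11.2 in idKO and 60.0 ± 8.80 in control atria (0.22 ± 0.12); the limma adjusted p of these 3 was 0.966. The median member difference was largest in idKO atrium 2 (0.30) and, among controls, in control atrium 1 (0.25). These are different mice, and idKO mouse 2 also gave the idKO ventricle that stood apart.

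The interaction, the genotype difference in atria minus that in ventricles, was called by limma for 0 of 34 members, against 0.296% of 14871 genes, and likewise by DESeq2, edgeR and with the mouse as a block. In the fit without the block an unadjusted p under 0.05 was found for 1 member, Cilp (-1.17 ± 0.49, limma adjusted p = 0.678), against 6.54% of all genes. With the mouse as a block it was found for 5 (Cilp, Fn1, Postn, Sparc and Mfap4, all negative, limma adjusted p = 0.145 to 0.418), against 10.4% of all genes. With DESeq2 and edgeR it was found for 2 of 34 (Cilp and Mfap4), near the shares over all genes, 6.49% and 6.29%. Without the block the next smallest p-values belonged to Mfap4 (-0.81 ± 0.42, limma adjusted p = 0.794), Tcf21 (0.42 ± 0.27, limma adjusted p = 0.864) and Fn1 (-0.30 ± 0.21, limma adjusted p = 0.884). The genotype differences of Cilp, Mfap4, Comp and Postn in the 2 chambers were thus not shown to differ. For Cilp, which was called between chambers in idKO mice and not in control mice, this interaction is the test of that difference.

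Lamc1 (ENSMUSG00000026478, chr1:153218922-153332786, minus strand), which encodes the laminin gamma-1 chain of basement membranes, is described after its values were seen, because it varied by mouse. It had 261, 153, 125 and 121 in idKO atria, against 135, 122, 209 and 204 in control atria. In ventricles it had 208, 142, 103 and 101 in idKO ventricles, against 109, 109.8, 203 and 213 in control ventricles. idKO mouse 1 and control mice 3 and 4 had more than 200 in both chambers, and the other 5 mice lay between 101 and 153 in both. With the mouse as a block the atrium was called higher than the ventricle in idKO mice (0.24, limma adjusted p = 0.0021), in contrast to the fit without it (limma adjusted p = 0.492).

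**Figure D5:**
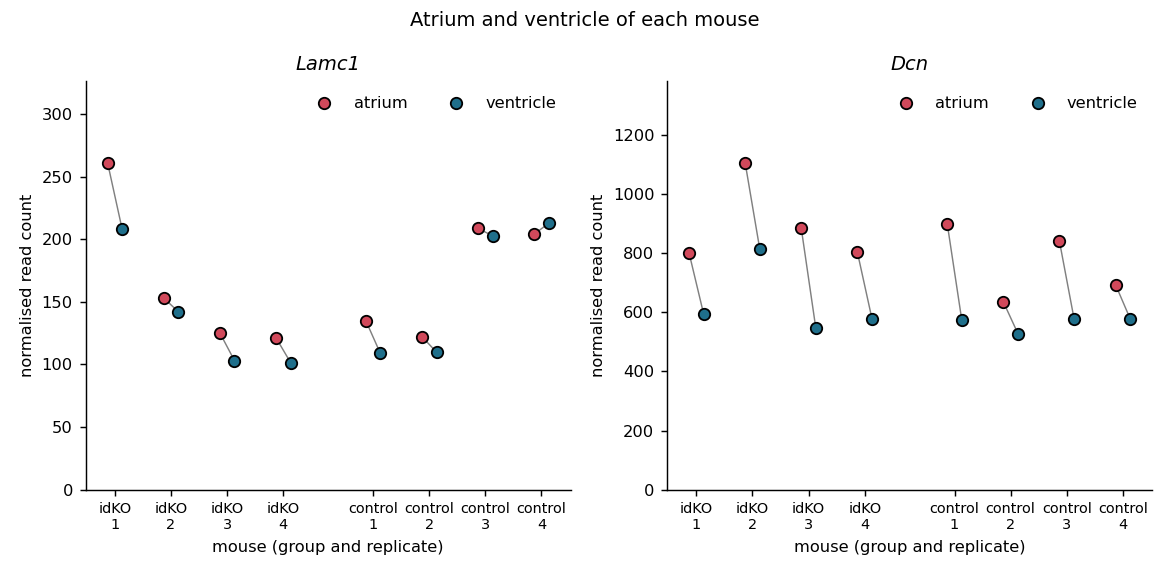
Normalised read count in the atrium (red) and ventricle (blue) of each mouse, joined by a line, for Lamc1 (left) and, for comparison, Dcn (right). The 3 mice with Lamc1 above 200 have it in both chambers. Lamc1 is lower in the ventricle of 7 of the 8 mice, and Dcn in that of every mouse.

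Other genes of the same systems were read from lists. Of 75 other matrix glycoproteins and proteoglycans, 51 were tested in ventricles and 5 were called, against 2.03% of all genes: Ltbp3 was higher in idKO ventricles, and Emilin2, Egflam, Lamb3 and Ccn4 were lower. Emilin2, an elastic fibre interface protein, averaged 33.5 ± 6.58 in idKO and 68.8 ± 9.64 in control ventricles (-1.03 ± 0.13, limma adjusted p = 7.5e-04). Egflam, which encodes pikachurin, a ligand of dystroglycan, averaged 10.9 ± 0.419 in idKO and 19.3 ± 2.64 in control ventricles (-0.75 ± 0.12, limma adjusted p = 0.00374). Ltbp3, which binds latent TGF-beta, averaged 58.0 ± 7.33 in idKO and 42.2 ± 1.65 in control ventricles (0.44 ± 0.09, limma adjusted p = 0.0231). For Egflam and Emilin2 the interaction was also called (0.92 ± 0.17, limma adjusted p = 0.0247, and 0.93 ± 0.19, limma adjusted p = 0.0399). None of these 5 is among the 34 genes.

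Of 22 other cardiac fibroblast markers, 21 were tested in ventricles by limma and 0 were called, 5 having an unadjusted p under 0.05 (against 15.0% of all genes), with 19 positive (against 48.0%) and a median of 0.23. Pdgfrl (0.85 ± 0.24), Pi16 (0.57 ± 0.21) and Htra3 (0.34 ± 0.13) had the smallest p. Of 20 genes of fibroblast activation, 17 were tested in ventricles and 0 were called by limma. Of these 17, 4 had an unadjusted p under 0.05, against 15.0% of all genes. The median of the 17 was 0.15, with Ltbp2 (0.89 ± 0.26), Cd44 (0.49 ± 0.17) and Itgbl1 (0.64 ± 0.24) first by p. In atria none of these 3 lists had a called gene. Between control chambers, where 28.2% of all genes were higher and 28.7% lower in atria, 15 of the 22 fibroblast markers were higher and 2 lower in atria, led by Osr1 (1.77 ± 0.17), Gas1 (1.63 ± 0.17) and Ly6a (-0.79 ± 0.09). Of the other matrix genes 37 of 62 tested were higher and 9 lower in control atria, led by Cilp2, a relative of Cilp, at 155 ± 8.54 in control atria and 0.418 ± 0.0974 in control ventricles, Podn (3.77 ± 0.12) and Fras1 (4.67 ± 0.16). Of the activation genes 9 of 18 tested were higher and 4 lower in control atria.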

How the data were processed

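Polyadenylated RNA from 16 heart libraries was sequenced as single reads of 60 bases from 20 ng of RNA, per the labels' protocols; strand-specific preparation is not stated, so reads of overlapping genes on opposite strands cannot be told apart. Reads were handled with RSEM 1.3.1 and cutadapt, and the build was GRCm38, per the submitters' processing notes; what tool did the scaling is not given in the sources used here. A normalised signal, made by the authors from read counts, fills the deposited table: each value is a whole number of reads plus a constant, over an effective library size, and 100% of values came out whole within 0.01 in each library. From these values the reads per library were recovered, 13.1 to 21.8 M (mega) in all.

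Genes with at least 1 CPM of the summed values in at least 4 libraries were tested with limma 3.58.1 (R 4.3.3) on log2(value + 1), two-sided, with a trended prior and Benjamini-Hochberg adjustment over all genes tested; a gene was called at an adjusted p under 0.05. That scale understates the change of low genes. Genotypes were compared within each chamber (8 libraries), and the interaction and the chambers on all 16. Alternatives were another pseudocount, other filters, other scalings, no trended prior, DESeq2 1.42.0 and edgeR 4.0.16 on the recovered reads, the mouse as a block, and leaving out single libraries or mice. The genotype comparisons within a chamber were also run on simulated reads with known fold changes. That simulation had no mouse effect and did not cover the chamber comparisons or the interaction.

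The members and lists were chosen with earlier results of these data known. Values of each library are given for the 4 fibroblast markers, for the 4 members with the smallest p in each genotype comparison and in the interaction, and for the 4 with the largest change in each direction between control chambers; up to 3 genes by p are named from other lists, plus every call where few were called. Replicates differed by more than sampling noise (mean chi-square per gene 8.08 to 16.8). Atrium and ventricle of a mouse share its number in the labels: their deviations from the group means correlated at 0.188 to 0.325 over 14871 genes, and in all 8 mice the highest correlation was that with the other chamber of the same mouse. Sequences and gene starts are from RefSeq, and gene positions from the GENCODE annotation of GRCm38; 23 of the 34 members had a RefSeq promoter entry. Protein sequences were not used here.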

Additional observations from a re-analysis of the deposited data

Results flagged for a closer look

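In 7 of 136 groups of 4 libraries (34 genes in 4 groups), 1 library lay far from the other 3 by the gap to its nearest neighbour relative to the range of the group; chance gives about 1 in 20 such groups. Outside the control ventricles, values above their group were those of Tcf21 in idKO ventricle 2 (14.86 in normalised read count), Pcolce in idKO ventricle 1 (55.15) and Vcan in idKO atrium 3 (24.82). In control ventricles, Fmod was high in replicate 3 (4.98) and Mfap5 in replicate 1 (29.2), and replicate 2 was low for Dcn (527.8) and Gsn (1235). The Tcf21 value belongs to the library that was the highest idKO ventricle for 29 of the 34 genes.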

How the results depend on the processing

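The count of members called between idKO and control ventricles was 0 in all alternatives but 2. It was 1 with DESeq2 (Comp), where 4.09% of all genes were called. It was also 1 without idKO ventricle 4 (Postn), where 2.76% were called, so that leaving out single libraries gave 0 to 1. In atria and for the interaction the count was 0 under every alternative run, the replicate block included. Between control chambers 29 members were called, 30 with the mouse as a block and 25 to 29 with single mice left out; in idKO mice the 26 calls became 29 with the block and 23 to 27 with single mice left out. The median member difference between control chambers was 0.46, but 0.99 with scaling by library total and 0.76 with the total taken without mitochondrial genes, where the median of all genes moved by 0.49 and 0.27; with single mice left out it was 0.42 to 0.50. The median in ventricles between genotypes was 0.08 to 0.19 with single libraries left out, and in atria 0.05 to 0.14. In the first, the lowest value was that without idKO ventricle 2. Depth limits the lowest members most: Tnc lay at 0.602 to 2.24 over all libraries and was not tested in ventricles. Beside the genes named above for scaling, 9 members changed sign in the interaction with scaling by library total, from 0.00 to 0.08 with the deposited scaling.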
